A study of Homo sapiens with 6 samples.

Results

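The collagen hydroxylases and folding enzymes are the proteins of the endoplasmic reticulum (ER) that modify new collagen chains and help them form a triple helix. They were taken by gene symbol from the count table of the series: P4HA1, P4HA2, P4HA3, P4HB, PLOD1, PLOD2, PLOD3, CRTAP, PPIB and FKBP10, which are 10 of the 23346 genes in the table. All 10 passed the filter on low counts that left 12186 genes for testing. RNA-seq was performed in BT549, a breast cancer cell line labelled as mesenchymal and of wild-type genotype. Cells grown in RPMI medium with fetal calf serum received either control siRNA (NC siRNA, 3 libraries) or siRNA against BNC2 (BNC2 siRNA, 3 libraries), each at 20 nM, and poly(A) RNA was sequenced 6 d later. BNC2 encodes basonuclin-2, a nuclear zinc finger protein, and the title of the series names extracellular matrix production as the process under study. All libraries come from 1 established cell line, and the knockdown left part of the BNC2 transcript in place.

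Collagen chains are made in the ER, where they are modified before they fold. Prolyl 4-hydroxylase, a tetramer of alpha subunits (P4HA1, P4HA2 or P4HA3) and the shared beta subunit P4HB, hydroxylates prolines and thereby makes the triple helix stable at body temperature. Lysyl hydroxylases (PLOD1, PLOD2 and PLOD3) prepare lysines for crosslinks and for the attachment of sugars, while CRTAP, PPIB and FKBP10 belong to the complexes that isomerise prolines and hold the chains during folding. Both kinds of hydroxylase need oxygen, iron, 2-oxoglutarate and vitamin C, and loss of several of these genes causes brittle bones or lax connective tissue.

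The perturbation was delivered as an equal mix of 3 siRNAs, shown here as sense strands because they define what was targeted. The 19 bases that match the BNC2 transcript are in capitals and the lower-case letters are the overhang.
BNC2 siRNA 1: GACUUGUGAUCAGUGUAAAtt
BNC2 siRNA 2: GGAAGACAUUCUAUGACAAtt
BNC2 siRNA 3: CCUCUGUACGAAGCCGAAAtt
Each sequence matched 1 place in the BNC2 gene, on the minus strand of GRCh37: chr9:16583000-16583018, chr9:16436834-16436852 and chr9:16419045-16419063. All 3 sites lie in coding exons, and the first and the third lie in an untranslated part of some other BNC2 transcripts. None of the 3 sequences occurred in full in a transcript of the 10 enzymes, and shorter matches were not searched. The BNC2 transcript itself was at 58.6 ± 7.07 CPM in NC siRNA and 37.9 ± 3.25 CPM in BNC2 siRNA libraries (SD, n = 3 each), without overlap. Its log2 fold change was -0.63 (SE 0.09, adjusted p = 8.2e-06).

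The libraries held between 16093978 and 18246254 counts on genes. Levels are given as CPM, counts scaled by library size and edgeR's TMM factors, and adjusted p-values come from edgeR's quasi-likelihood test with Benjamini-Hochberg adjustment over all 12186 genes, with a gene called at 0.05 or less. The mesenchymal markers VIM, CDH2, FN1, ZEB1 and TWIST1 were present in each library. CDH2 had 2452 to 2775 counts with NC siRNA and 6204 to 6833 with BNC2 siRNA, and TWIST1 had 421 to 470 and 1092 to 1329. VIM had 51271 to 53630 and 54208 to 60406, FN1 12551 to 14766 and 16063 to 18033, and ZEB1 1925 to 2257 and 2421 to 2717. The epithelial markers CDH1, EPCAM, ESRP1 and GRHL2 had 0 or 1 count. Of the other epithelial markers, KRT18 had 59 to 94 counts with NC siRNA and 5 to 11 with BNC2 siRNA, and ESRP2 had 2 to 8 and 13 to 23. Of the markers of leukocytes, endothelium and adipocytes, CD14 had 23 to 36 counts with NC siRNA and 9 to 12 with BNC2 siRNA, and the others had at most 7.

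Of the 10 enzymes, 8 were up-regulated with BNC2 siRNA, 1 was down-regulated and 1 was not called. Of all genes tested, 36.6% were called up and 36.2% were called down, so that a call in itself was common in this comparison. The median log2 fold change of the 10 enzymes was 0.73, against 0.00 over all genes tested. In the 8 up-regulated enzymes all knockdown libraries lay above all control libraries, in the other 2 the groups overlapped, and in 74.9% of all genes tested the groups did not overlap. FKBP10, P4HA2 and PLOD1 rose more than 2.1-fold, whereas P4HA1 rose 1.25-fold and PLOD2 fell to 88.8% of its NC siRNA level. In bulk RNA, a change in RNA per cell and a change in the make-up of the cells cannot be told apart.

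**Figure D1:**
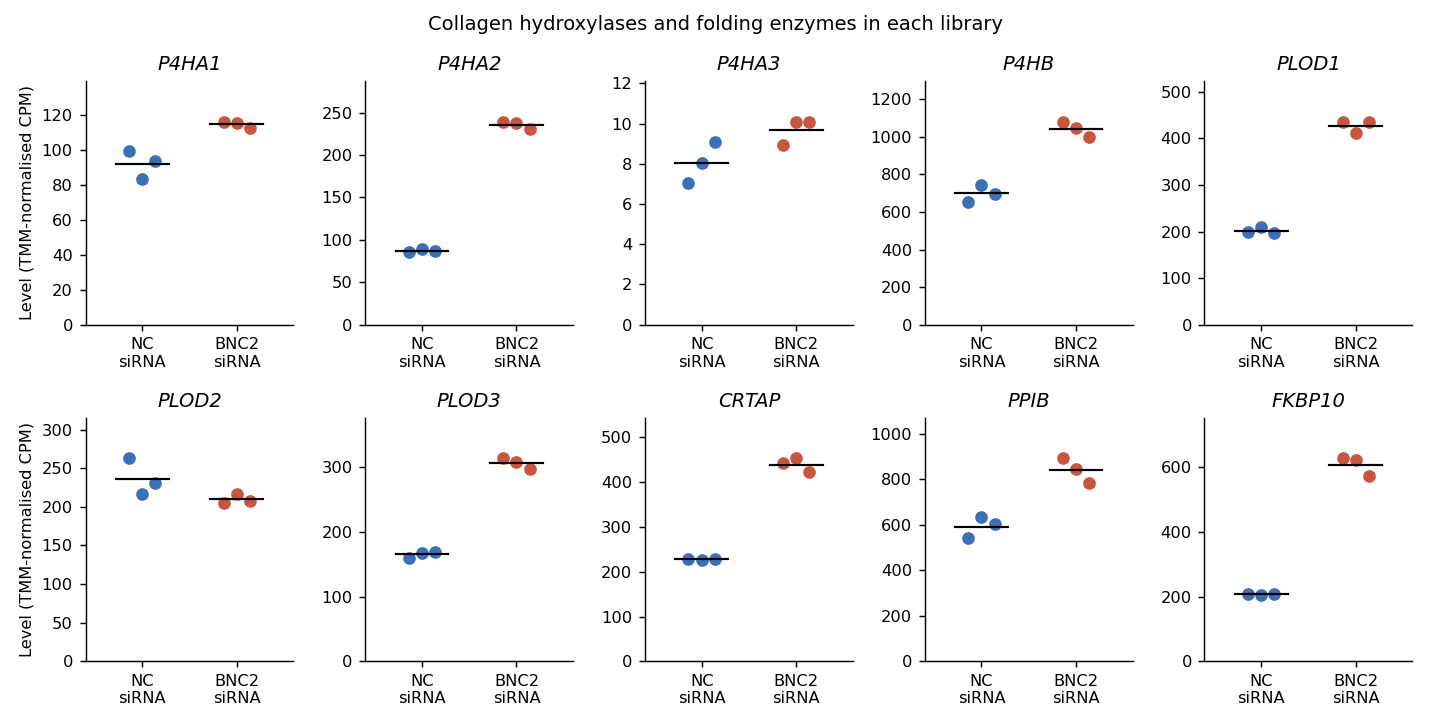
Level of each enzyme in each library, in TMM-normalised CPM on a linear axis that starts at 0; points are libraries (NC siRNA in blue, BNC2 siRNA in red) and lines are group means. The BNC2 siRNA points lie above all NC siRNA points in 8 genes, and the groups overlap in P4HA3 and PLOD2.

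The alpha subunits of prolyl 4-hydroxylase hold the catalytic site, and they did not change alike. P4HA2 (chr5:131525840-131631008 of GRCh37, minus strand) had 85.8, 88.8 and 87.1 CPM with NC siRNA and 239, 237 and 231 CPM with BNC2 siRNA. The groups were far apart, and the libraries of each group differed little. On the log2 scale the difference was 1.44 (SE 0.05, adjusted p = 1.1e-12), a 2.70-fold rise that 3.27% of the genes tested reached or exceeded. P4HA1 (chr10:74766975-74856732, minus strand), the subunit of the type I enzyme, had 99.6, 83.4 and 93.7 CPM with NC siRNA and 116, 116 and 113 CPM with BNC2 siRNA. The groups did not overlap, but the NC siRNA libraries spread more widely than the BNC2 siRNA libraries. Its log2 fold change was 0.32 (SE 0.07, adjusted p = 0.00042), and 31.2% of the genes tested rose at least as much.

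P4HA3 (chr11:73946846-74022685, minus strand), the least abundant alpha subunit, had 7.04, 8.07 and 9.09 CPM with NC siRNA and 8.96, 10.1 and 10.1 CPM with BNC2 siRNA. These are 125 to 179 counts per library, and the lowest BNC2 siRNA library lay within the range of the controls. Its log2 fold change of 0.27 (SE 0.13, adjusted p = 0.0699) did not pass the threshold. It did pass without the filter on low counts (adjusted p = 0.0465) and without NC siRNA replicate 3 (log2 fold change 0.36, adjusted p = 0.0333), whereas without NC siRNA replicate 1 the log2 fold change was 0.17 (adjusted p = 0.250).

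P4HB (chr17:79801035-79818732, minus strand) encodes protein disulphide isomerase, which also forms disulphide bonds in many other proteins of the ER. It had 653, 744 and 698 CPM with NC siRNA and 1080.3, 1045 and 996 CPM with BNC2 siRNA. The groups were separated by a gap larger than the range within either. The log2 fold change was 0.58 (SE 0.06, adjusted p = 2.1e-07), a 1.49-fold rise.

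Because the alpha subunits differ in transcript length, they were compared with each other as CPM per kb of exon. In the NC siRNA libraries P4HA1 made up 67.3, 62.0 and 64.5% of the summed alpha subunit level, and in the BNC2 siRNA libraries 49.0, 48.8 and 48.8%. P4HA2 made up 26.5, 30.2 and 27.4% with NC siRNA and 46.1, 45.7 and 45.6% with BNC2 siRNA. The relative level of the 2 subunits depended on the length used, while the shift between them did not. With the length of the longest transcript P4HA1 made up 58.7 ± 2.74% and P4HA2 34.8 ± 2.16% with NC siRNA, and 41.9 ± 0.0883% and 53.7 ± 0.250% with BNC2 siRNA (SD, n = 3 each), so that P4HA2 was then the larger after knockdown. The share of P4HA3 went from 7.36 ± 1.04% to 5.35 ± 0.400% (SD, n = 3 each), and its groups did not overlap. The summed alpha subunit level was 48.7 ± 2.45 CPM per kb with NC siRNA and 80.4 ± 1.14 with BNC2 siRNA, a ratio of 1.65. The log2 ratio of P4HB to this sum was 1.81 ± 0.16 with NC siRNA and 1.67 ± 0.04 with BNC2 siRNA, and these groups overlapped (exact two-sided permutation p = 0.2). This difference of -0.15 ranged from -0.06 without NC siRNA replicate 2 to -0.22 without NC siRNA replicate 1, and it was -0.23 (exact permutation p = 0.1) with the length of the longest transcript. For each of the 3 shares the exact permutation p was 0.1, the smallest that 3 libraries against 3 allow, and 0.1125 after adjustment over the 9 shares and ratios tested.

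**Figure D2:**
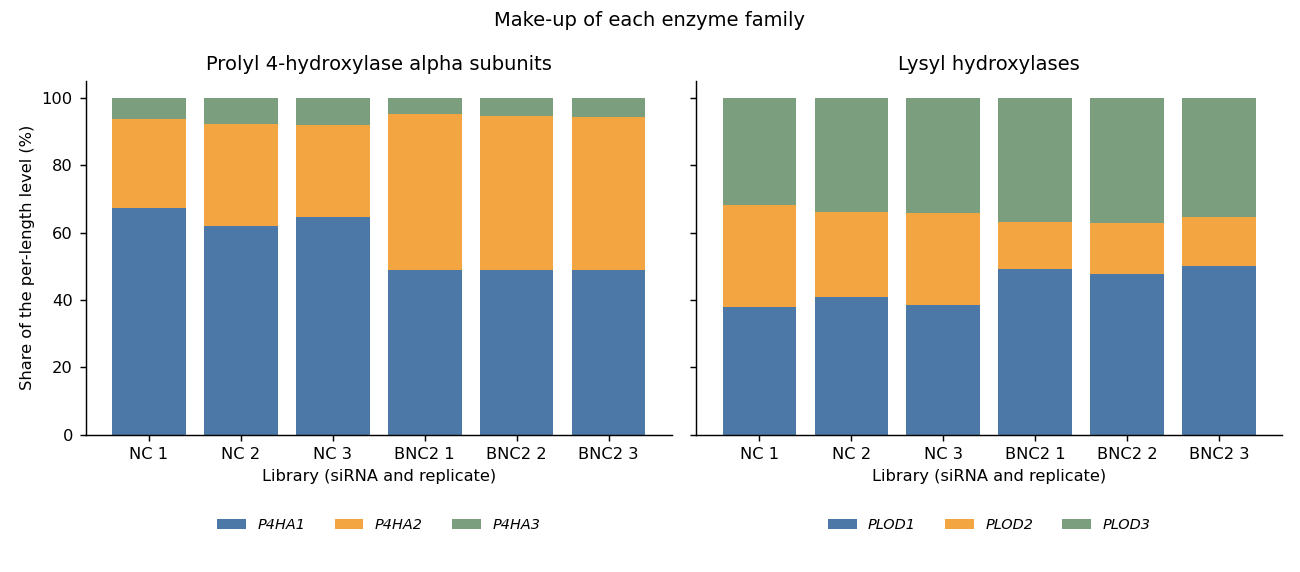
Share of each gene in the summed per-length level (CPM per kb of exon, in percent) of the prolyl 4-hydroxylase alpha subunits and of the lysyl hydroxylases, with 1 bar for each library. P4HA2 takes 26.5 to 30.2% of its family with NC siRNA and 45.6 to 46.1% with BNC2 siRNA, and PLOD2 takes 25.4 to 30.4% and 14.1 to 15.2%.

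Of the lysyl hydroxylases, PLOD1 and PLOD3 rose and PLOD2 did not. PLOD1 (chr1:11994262-12035595, plus strand), which hydroxylates lysines of the helix, had 199, 210 and 197 CPM with NC siRNA. With BNC2 siRNA it had 435, 412 and 436 CPM, so that each of these libraries lay at about the double of the controls. The log2 fold change was 1.08 (SE 0.06, adjusted p = 3.4e-11), and 6.69% of the genes tested rose as much or more. PLOD3 (chr7:100849258-100861701, minus strand), which also transfers galactose and glucose to hydroxylysine, had 160, 167 and 168 CPM with NC siRNA and 313, 308 and 297 CPM with BNC2 siRNA. The groups were far apart, with a log2 fold change of 0.89 (SE 0.05, adjusted p = 3.1e-10) and a 1.85-fold rise.

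PLOD2 (chr3:145752926-145881512, minus strand) hydroxylates lysines in the telopeptides, the short ends of the collagen molecule that form the stable crosslinks of scar tissue and stiff tumours. It had 263, 216 and 231 CPM with NC siRNA and 206, 217 and 208 CPM with BNC2 siRNA. NC siRNA replicate 1 stood above the other 5 libraries, and NC siRNA replicate 2 lay within the range of the BNC2 siRNA libraries. The log2 fold change was -0.17 (SE 0.07, adjusted p = 0.0292), and 38.9% of the genes tested fell at least as much. This call rested on single libraries: without NC siRNA replicate 1 the log2 fold change was -0.09 (adjusted p = 0.131), without BNC2 siRNA replicate 1 it was -0.16 (adjusted p = 0.0829), and without BNC2 siRNA replicate 3 it was -0.17 (adjusted p = 0.0633).

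Within the summed lysyl hydroxylase level per length, which was 159 ± 1.97 CPM per kb with NC siRNA and 269 ± 3.47 with BNC2 siRNA (a ratio of 1.69), the share of PLOD2 went from 30.4, 25.4 and 27.3% to 14.1, 15.2 and 14.4%. The highest BNC2 siRNA library was thus more than 10 percentage points below the lowest NC siRNA library. PLOD1 went from 39.0 ± 1.50 to 48.9 ± 1.19% (SD, n = 3 each), and PLOD3 from 33.3 ± 1.36 to 36.5 ± 0.862%. For each of these the groups did not overlap (exact permutation p = 0.1, adjusted 0.1125). The difference in the PLOD2 share was -13.1 percentage points with all libraries and -11.8 without NC siRNA replicate 1.

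Because the members of each family moved apart, the sequences before their start sites are shown for P4HA1 with P4HA2 and for PLOD1 with PLOD2, the pairs with the largest differences in share between the groups. They are RefSeq windows on GRCh38.p14 from 250 bases before to 50 bases after the start site, written along the gene's strand. Capitals mark ACGTG or GCGTG on either strand, the core letters of the element bound by hypoxia-inducible factors, which are known to act on several collagen hydroxylase genes.
P4HA1, chr10:73096817-73097116, minus strand: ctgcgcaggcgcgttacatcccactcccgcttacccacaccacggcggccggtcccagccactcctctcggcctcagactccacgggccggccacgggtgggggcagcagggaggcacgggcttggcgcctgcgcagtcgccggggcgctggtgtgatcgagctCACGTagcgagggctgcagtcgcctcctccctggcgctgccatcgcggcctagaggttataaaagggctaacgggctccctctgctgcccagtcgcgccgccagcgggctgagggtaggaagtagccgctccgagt
P4HA2, chr5:132227042-132227341, minus strand: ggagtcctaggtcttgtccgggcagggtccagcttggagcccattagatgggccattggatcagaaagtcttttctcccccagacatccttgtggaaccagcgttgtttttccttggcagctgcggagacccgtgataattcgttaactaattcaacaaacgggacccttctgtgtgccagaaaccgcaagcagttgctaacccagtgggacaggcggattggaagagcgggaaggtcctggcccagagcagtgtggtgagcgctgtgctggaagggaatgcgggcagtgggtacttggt
PLOD1, chr1:11934467-11934766, plus strand: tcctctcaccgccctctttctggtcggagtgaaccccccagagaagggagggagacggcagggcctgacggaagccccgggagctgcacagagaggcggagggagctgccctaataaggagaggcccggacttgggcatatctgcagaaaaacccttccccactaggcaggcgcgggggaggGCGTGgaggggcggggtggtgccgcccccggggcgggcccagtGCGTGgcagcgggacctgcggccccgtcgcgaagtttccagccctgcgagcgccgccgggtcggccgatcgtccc
PLOD2, chr3:146161135-146161434, minus strand: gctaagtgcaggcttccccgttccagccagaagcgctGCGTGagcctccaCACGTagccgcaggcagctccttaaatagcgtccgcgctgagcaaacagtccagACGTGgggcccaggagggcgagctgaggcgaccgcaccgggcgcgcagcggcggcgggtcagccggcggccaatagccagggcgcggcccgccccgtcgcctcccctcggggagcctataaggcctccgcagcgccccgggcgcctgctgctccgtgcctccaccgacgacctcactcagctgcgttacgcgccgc
A window was found for 8 of the 10 genes, all but FKBP10 and P4HA3. The core occurred 3 times in the window of PLOD2, starting 213, 200 and 146 bases before the start site, 2 times in that of PLOD1, and 1 time in that of P4HA1. It was not in the windows of P4HA2 and PLOD3. In all, 6 of the 8 windows held it, as did 48.4% of the 35116 RefSeq windows of this length. The ER stress response element (CCAAT and CCACG 9 bases apart, either strand) was in 0 of the 8 windows and in 0.0769% of all windows. These are matches of letters, other start sites of these genes were not searched, and binding was not measured.

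The prolyl 3-hydroxylation complex consists of CRTAP, PPIB and the enzyme P3H1, and it acts on single prolines and assists helix folding. CRTAP (chr3:33155506-33189265, plus strand), its scaffold, had 229, 226 and 228 CPM with NC siRNA and 443, 453 and 422 CPM with BNC2 siRNA. The control libraries lay within 3 CPM of each other and far below the others, with a log2 fold change of 0.95 (SE 0.05, adjusted p = 1.2e-10). PPIB (chr15:64447939-64455333, minus strand), cyclophilin B, which isomerises prolines of many secreted proteins, had 540.5, 632 and 602 CPM with NC siRNA and 891, 844 and 782 CPM with BNC2 siRNA. The groups did not overlap, although PPIB varied more within its groups than CRTAP did. Its log2 fold change was 0.50 (SE 0.07, adjusted p = 3.4e-06), a 1.42-fold rise. P3H1, listed in the table as LEPRE1, had 101, 113 and 103 CPM with NC siRNA and 208, 197 and 182 CPM with BNC2 siRNA (log2 fold change 0.89, SE 0.06, adjusted p = 2.8e-09).

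FKBP10 (chr17:39968932-39979465, plus strand) encodes FKBP65, a prolyl isomerase that binds collagen and is required for telopeptide lysine hydroxylation by PLOD2. It had 208, 205 and 208 CPM with NC siRNA and 627, 621 and 571 CPM with BNC2 siRNA. It was the enzyme that rose most of the 10, with a log2 fold change of 1.55 (SE 0.06, adjusted p = 6.4e-13) and a fold of 2.93. Of all genes tested, 2.55% rose as much or more. In per-length levels, FKBP10 exceeded PLOD2 in both groups, with 69.8 ± 0.588 against 44.1 ± 4.43 CPM per kb with NC siRNA and 205 ± 10.4 against 39.1 ± 1.09 CPM per kb with BNC2 siRNA (SD, n = 3 each). FKBP10 lies 75 bases from P3H4 (LEPREL4 in the table) on the opposite strand, and the 2 genes are transcribed away from each other. P3H4, which forms a complex with PLOD1, had 93.3, 104 and 95.7 CPM with NC siRNA and 176, 173 and 168 CPM with BNC2 siRNA (log2 fold change 0.81, SE 0.06, adjusted p = 3.1e-09).

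Across genes, the per-length level in the NC siRNA libraries ran from PPIB (604 ± 47.9 CPM per kb) and P4HB (171 ± 11.1) through FKBP10, PLOD1 (62.1 ± 2.20), PLOD3 (52.9 ± 1.53), PLOD2, CRTAP (34.5 ± 0.223) and P4HA1 (31.5 ± 2.80) to P4HA2 (13.6 ± 0.230) and P4HA3 (3.57 ± 0.454). The order of these means was the same with the length of the longest transcript, but the libraries of PLOD3 and PLOD2, and those of CRTAP and P4HA1, then overlapped. Among the 11829 tested genes that have a length, PPIB ranked 37 and P4HA3 ranked 8062. With BNC2 siRNA the order of P4HA1, P4HA2 and PLOD2 rested on the length used. By summed exons P4HA2 was the lowest of these 3 (36.8 ± 0.679 CPM per kb), below P4HA1 (39.3 ± 0.632) and PLOD2. By the longest transcript it was the highest (51.8 ± 0.955), above PLOD2 (46.6 ± 1.30) and P4HA1 (40.4 ± 0.650).

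The transcripts of the substrate, the collagen chains, differed between the groups by a larger factor than those of the hydroxylases. The 43 genes of collagen chains in the table summed to 916 ± 12.2 CPM per kb with NC siRNA and 2725 ± 15.7 CPM per kb with BNC2 siRNA (SD, n = 3 each), a ratio of 2.97. Of these, 21 were tested, and 18 were called up, 2 down and 1 was not called, beside 36.6% up and 36.2% down of all genes tested. Their median log2 fold change was 1.12. In the NC siRNA libraries COL1A1 was the largest part of the sum, with 33.7%, and in the BNC2 siRNA libraries it made up 6.58%, with 309 ± 23.3 and 179 ± 9.85 CPM per kb. COL1A2, the chain that pairs with COL1A1 in type I collagen, made up 25.4% and 33.5%, and COL5A1 4.24% and 18.2%. The log2 ratio of collagen chains to P4HA subunits was 4.17, 4.34 and 4.20 with NC siRNA and 5.06, 5.07 and 5.12 with BNC2 siRNA. This corresponds to 18.8 and 33.9 units of chain transcript for each unit of alpha subunit transcript. The log2 ratio of collagen chains to lysyl hydroxylases went from 2.49, 2.55 and 2.54 to 3.31, 3.36 and 3.35, or from 5.76 to 10.1 on the linear scale. For both ratios the BNC2 siRNA libraries all lay above the NC siRNA libraries (exact permutation p = 0.1, adjusted 0.1125), by a factor of 1.80 for P4HA and 1.76 for PLOD.

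**Figure D3:**
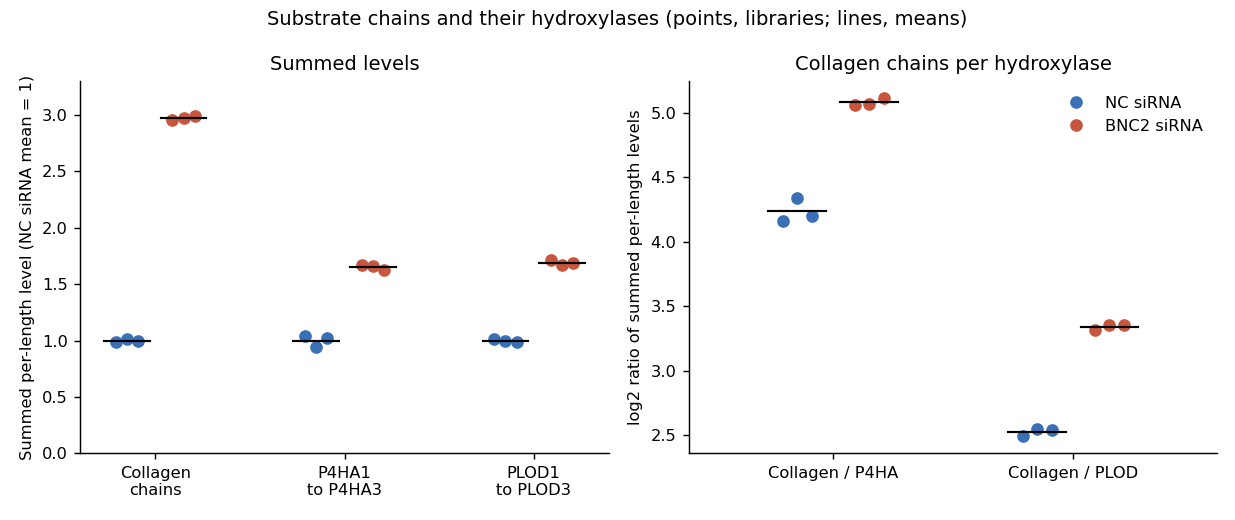
Left, summed per-length level of 43 collagen chain genes, of P4HA1 to P4HA3 and of PLOD1 to PLOD3 in each library, with the NC siRNA mean of each set at 1; right, log2 ratio of the collagen sum to each hydroxylase sum. Points are libraries (NC siRNA in blue, BNC2 siRNA in red) and lines are means. The collagen sum reaches 2.97 and the hydroxylase sums 1.65 and 1.69, so that both ratios are higher in all BNC2 siRNA libraries.

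The other proteins that act on procollagen in the ER and on its way out were described from a list of 15 genes, of which all were tested. Of these, 11 were called up and 3 down, beside 36.6% and 36.2% of all genes tested. Their median was 0.48 on the log2 scale, against 0.00 over all genes. CREB3L1, a membrane-bound transcription factor known to act on collagen genes, rose most, from 89.2, 86.4 and 99.6 CPM to 252, 256 and 248 CPM (log2 fold change 1.46, SE 0.06, adjusted p = 4.1e-12). MIA3, or TANGO1, which loads procollagen into transport vesicles, rose from 132, 124 and 129 to 264, 294 and 295 CPM (log2 fold change 1.15, adjusted p = 5.4e-11). FKBP14, a prolyl isomerase of the same family as FKBP10, rose from 20.4, 17.0 and 19.1 to 37.0, 39.2 and 38.9 CPM (log2 fold change 1.03, adjusted p = 1.5e-08). In all 3 genes the groups were far apart. The coat protein SEC24D (log2 fold change 0.65), the collagen galactosyltransferases GLT25D2 (0.57) and GLT25D1 (0.46), P3H3, which is listed as LEPREL2 and acts with PLOD1 (0.48), and the retrieval receptor KDELR2 (0.46) rose as well, with no overlap between groups. The rise of TMEM38B (0.35, adjusted p = 0.0236), an ER ion channel, came with overlapping groups and was not called without NC siRNA replicate 1 or 2 or BNC2 siRNA replicate 1 or 2 (0.28 to 0.35).

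SERPINH1, or HSP47, the chaperone that binds the folded triple helix, did not move with the enzymes. It had 832, 867 and 851 CPM with NC siRNA and 872, 846 and 800.3 CPM with BNC2 siRNA, and the groups overlapped. Its log2 fold change was -0.02 (SE 0.05, adjusted p = 0.777). P3H2 (LEPREL1 in the table), the prolyl 3-hydroxylase best known for acting on collagen of basement membranes, fell from 600.5, 593 and 637 CPM to 321, 335 and 326 CPM. Every BNC2 siRNA library was below every control, with a log2 fold change of -0.90 (SE 0.05, adjusted p = 2.7e-10), while the related P3H1 and P3H3 rose. SPARC, a secreted collagen-binding protein, fell from 2366, 2338 and 2338 CPM to 1678, 1655 and 1575 CPM (log2 fold change -0.52, adjusted p = 1.6e-07). SEC23A, the coat partner of SEC24D, fell with overlapping groups (-0.27, adjusted p = 0.0052).

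**Figure D4:**
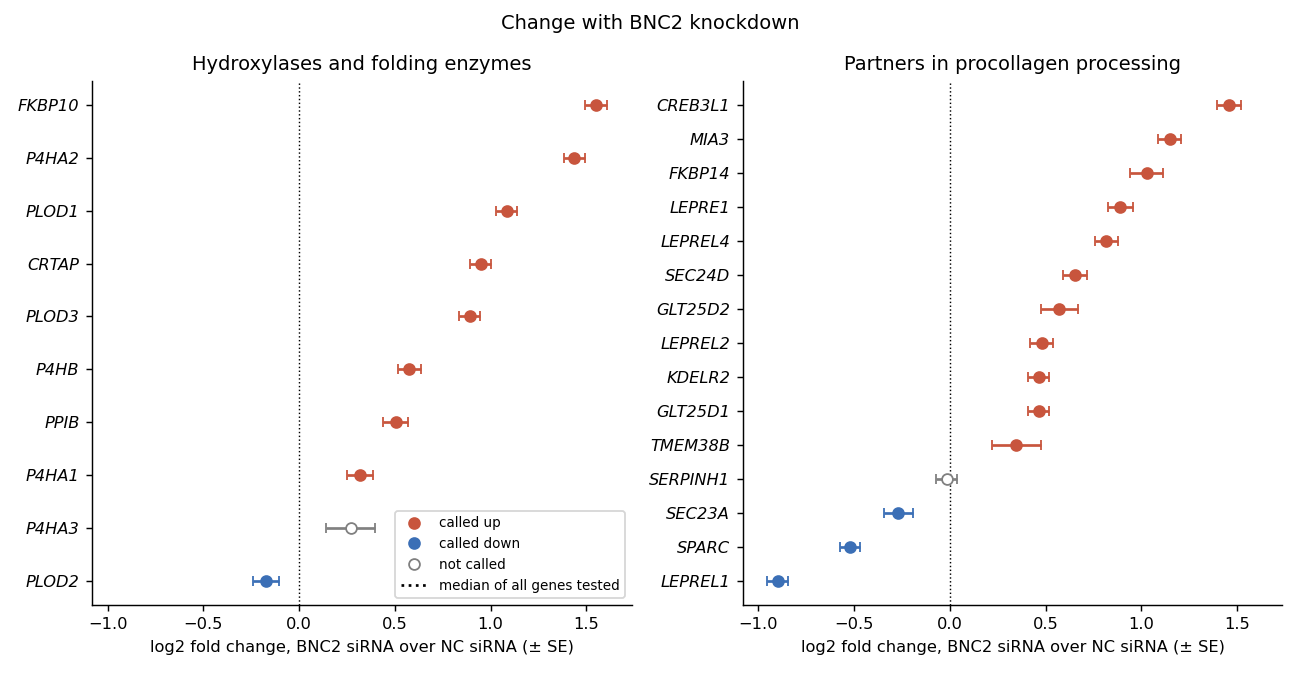
Log2 fold change of BNC2 siRNA over NC siRNA with its standard error (n = 3 libraries each) for the 10 enzymes and for 15 partners in procollagen processing; red marks genes called up, blue genes called down and open circles genes not called, and the dotted line is the median of all genes tested. FKBP10 (1.55) and P4HA2 (1.44) lead the enzymes, PLOD2 (-0.17) lies below the line, and LEPREL1 (-0.90) is the lowest of the partners.

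General chaperones and folding enzymes of the ER, which serve all secreted proteins, were described in the same way. Of 15 such genes 11 were called up and 1 down, beside 36.6% and 36.2% of all genes tested, with a median of 0.24 on the log2 scale against 0.73 for the 10 enzymes. This difference between lists was not tested. The largest rises were of ERO1L (1.17, adjusted p = 2.8e-10), the oxidase that reoxidises protein disulphide isomerase, and HYOU1 (0.64, adjusted p = 8.85e-09), and DNAJB11 fell (-0.14, adjusted p = 0.0325). Among 5 other prolyl isomerases of the ER, 2 were called up and 1 down, with a median of 0.09. FKBP7 had a log2 fold change of 1.16 (adjusted p = 3.2e-06) at a low level, with means of 3.06 CPM with NC siRNA and 6.86 CPM with BNC2 siRNA. PPIC had a log2 fold change of 0.20 (adjusted p = 0.0074). FKBP2 fell with overlapping groups (-0.27, adjusted p = 0.0040).

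Since the hydroxylases use oxygen, iron and vitamin C, related genes were also described. Of 14 genes known to respond to hypoxia 12 were tested, and 9 of them were called up and 2 down (36.6% and 36.2% of all genes tested), with a median of 0.58 against 0.00 over all genes. The glucose transporter SLC2A1 rose from 75.0, 67.8 and 63.3 CPM to 237, 230.1 and 227 CPM (log2 fold change 1.75, adjusted p = 9.0e-13), and PDK1, which slows entry of pyruvate into mitochondria, rose by 1.62 (adjusted p = 2.0e-11). VEGFA, the growth factor of blood vessels, fell from 138, 144 and 141 to 61.0, 64.0 and 62.1 CPM (log2 fold change -1.18, adjusted p = 2.3e-11), and ADM fell as well (-0.37, adjusted p = 0.00015). Of the collagen hydroxylases, P4HA1, P4HA2 and PLOD2 are known to respond to hypoxia too, and their log2 fold changes were 0.32, 1.44 and -0.17.

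Of the oxygen-sensing hydroxylases, which share the chemistry of the collagen prolyl hydroxylases, 3 of 5 were tested. P4HTM (0.53, adjusted p = 0.0056) and HIF1AN (0.35, adjusted p = 3.6e-05) rose, and EGLN1 fell (-0.16, adjusted p = 0.0226). EGLN3, below the filter, had 23, 13 and 11 counts with NC siRNA and 0, 0 and 1 count with BNC2 siRNA. Of 6 tested genes for the supply of vitamin C and metal ions, 3 rose and 3 fell, a split close to that of all genes tested (36.6% up and 36.2% down), with a median of -0.06. The iron carriers SLC39A14 (0.35, adjusted p = 3.4e-05) and TFRC (0.32, adjusted p = 0.00042) rose most. SLC2A3, which carries oxidised vitamin C as well as glucose, fell (-0.52, adjusted p = 2.3e-06), as did SLC39A13 (-0.53, adjusted p = 2.2e-05), a zinc transporter whose loss impairs lysyl and prolyl hydroxylation of collagen. SLC2A1, a glucose transporter of the same family as SLC2A3, was counted with the hypoxia genes and not in this list, and it rose (1.75).

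**Figure D5:**
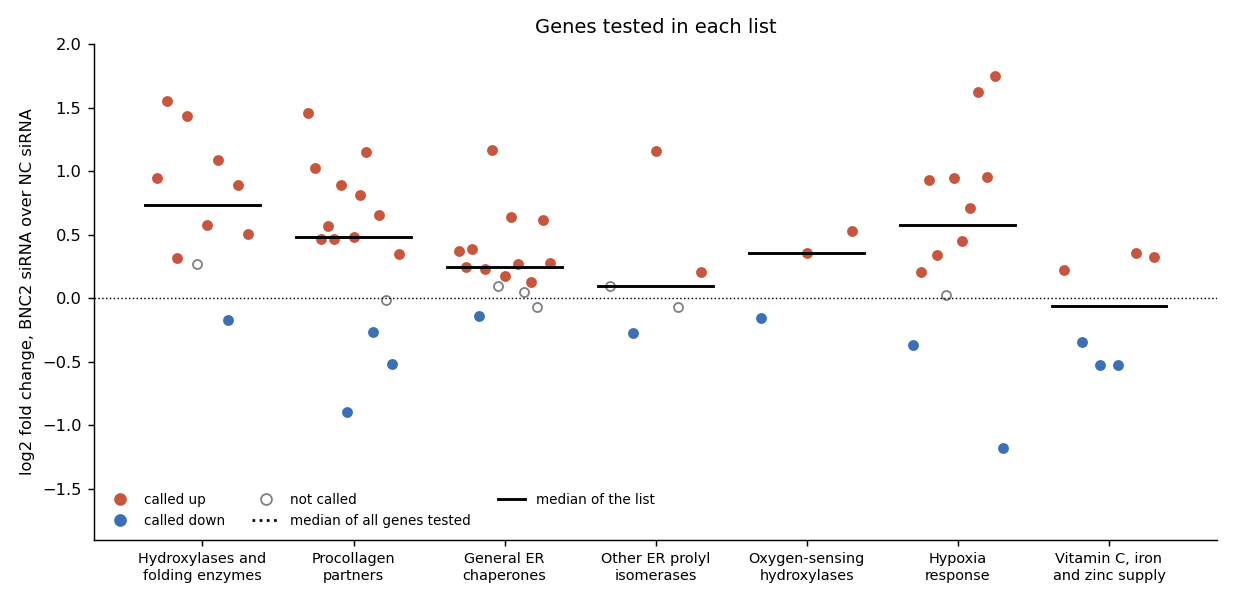
Log2 fold change of BNC2 siRNA over NC siRNA for each tested gene of the 7 lists (red, called up; blue, called down; open, not called), with the median of each list as a bar and the median of all genes tested as a dotted line. The bar of the hydroxylases and folding enzymes lies at 0.73, that of the procollagen partners at 0.48 and that of the general ER chaperones at 0.24.

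Reads on the strand opposite to an enzyme made up 0 to 1.90% of its reads. When reads were counted without regard to strand, PPIB kept 27.2 to 29.9% of its reads, because 591 bases of its exons overlap those of SNX22 on the other strand and shared reads were then discarded. Its log2 fold change on those counts was 0.53 (adjusted p = 7.0e-07), close to the stranded value. The other 9 enzymes kept at least 99.9% of their reads.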

How the data were processed

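The 6 RNA-seq libraries were assigned by their labels to NC siRNA or BNC2 siRNA with a replicate number. The methods call them biological replicates. The authors aligned single-end reads to hg19 with STAR 2.6.1d (the submitters' processing notes) and deposited raw counts of reads per gene, without normalisation, which equal the reverse-strand counts of the library tables in all 23346 genes. Reads that were not counted on a gene (37.7% to 41.1% per library) were left out.

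Genes that exceeded 1 CPM in 3 or more libraries were tested, and libraries were scaled with TMM (factors 0.972 to 1.04). Groups were compared with the quasi-likelihood test of edgeR 4.0.16 (R 4.3.3, limma 3.58.1) with Benjamini-Hochberg adjustment over 12186 genes. The threshold was an adjusted p of 0.05. Standard errors are log2 fold changes over the square root of F. The scripts were tested on simulated data, in which far fewer genes changed than were called here. CPM per kb used the summed exons of protein-coding transcripts in GENCODE mapped to GRCh37, the assembly of hg19, and shares and ratios were compared with exact two-sided permutation tests. Depth limits low genes most, since 3 counts correspond to 0.168 to 0.191 CPM.

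The genes and lists were chosen with earlier results of these data known. All 10 enzymes and all tested procollagen partners are named, and from each other list the 2 called genes with the strongest rise and the 2 with the strongest fall. EGLN3 and the collagen chains were named after their values were seen. Other settings were DESeq2 1.42.0, the likelihood ratio test of edgeR that the methods name, DESeq2 size factors or total counts for scaling, filterByExpr or no filter, counts of both strands, a replicate block, the length of the longest transcript, and leave-one-out fits. Python 3.11.15 with numpy 2.4.6, pandas 2.3.3 and matplotlib 3.10.9 was used for shares, sequences and plots.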

Additional observations from a re-analysis of the deposited data

How the results depend on the processing

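The count of enzymes called up was 8 in each alternative except without the filter on low counts and without NC siRNA replicate 3, where it was 9 with P4HA3 added. The count of enzymes called down, 1 (PLOD2) with all libraries, was 0 with the replicate block (log2 fold change -0.17, adjusted p = 0.0684), and 0 to 1 when single libraries were left out. The deviations of same-numbered libraries had correlations of -0.21, -0.08 and -0.13, so that no shared effect of the replicate number was seen. With 3 libraries in each group this cannot settle whether the samples were paired. The block moved the calls over all genes from 8879 to 8400. SERPINH1 was not called in any setting. Its log2 fold change was -0.094 with total counts only and 0.011 without the filter on low counts. It ranged from -0.046 to 0.0079 when single libraries were left out, above 0 without BNC2 siRNA replicate 3. TMEM38B lost its call with total counts only (0.27, adjusted p = 0.0666) and without NC siRNA replicate 1 or 2 or BNC2 siRNA replicate 1 or 2 (0.28 to 0.35). The cause was not tested. With total counts only the median of all genes was -0.07 and that of the 10 enzymes 0.66. The shares and ratios kept their direction in each alternative run on them. Their exact tests cannot fall below 0.1 at this number of libraries. P4HA3 had the fewest counts of the enzymes, 125 to 179 per library, and the largest standard error of the 10.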
